A study of Triticum turgidum subsp. durum with 4 samples.

Results

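The sequences described here are those of the durum wheat microRNA table whose names carry the numbers miR1436, miR1439, miR5049, miR5062, miR5064, miR5066, miR5067, miR5175, miR5180 or miR5181. An eleventh number, miR5185, was looked for and had no entry. Members were chosen by name, without use of any read count, and each different sequence was counted once. This gave 135 different sequences under 136 names, of 2111 different sequences in the whole table. The largest family was miR5049 with 64 sequences, followed by miR5066 with 24 and miR5175 with 11. The families miR1436, miR5064 and miR5180 had 7 sequences each, miR5067 had 6, and miR1439, miR5062 and miR5181 had 3 each.

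The 4 small RNA libraries came from 12-day-old durum wheat seedlings raised from seed of 2 genotypes, and no stress was applied to the seedlings themselves. According to the paper, the tissue frozen for RNA extraction was fresh shoots. Library TCG was made from progeny of control DBA Aurora plants, a stress-tolerant commercial variety, and TWH from progeny of DBA Aurora plants exposed to water deficit and heat. SCG and SWH were the matching libraries of L6, a stress-sensitive breeding line known as UAD1301020-8. Each library held pooled RNA of 8 seedlings, so there was 1 library per group, and a test between a pair of libraries compares those libraries and not the seed groups. The libraries held 994074, 1096670, 1293324 and 855716 microRNA reads in the order TCG, TWH, SCG and SWH, an order kept for all lists of values below. A normalised count is the deposited read count multiplied by 1 factor per library. Sequences with fewer than about 5 reads were mostly left at 0, and 5 reads were worth 4.16 to 5.99 normalised counts, so a 0 is read here as below 5 reads.

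MicroRNAs of plants are cut from hairpin transcripts, mostly at a length of 21 nt by DICER-LIKE 1, whereas DICER-LIKE 3 makes the 24-nt small interfering RNAs that guide DNA methylation at repeats. Miniature inverted-repeat transposable elements of the Stowaway type are short elements, common in grass genomes, whose ends are inverted repeats that begin with the letters CTCCCTCCG. A transcript through such an element folds back on itself into a hairpin, so its small RNAs can be listed as microRNAs. The prefix of a name gives the species of the matching miRBase entry, which is rice (osa), barley (hvu), Brachypodium distachyon (bdi), bread wheat (tae) or Aegilops tauschii (ata). In the names, L and R give bases added to or missing from either end of the known sequence, ss gives substituted bases, and p5 or p3 marks an arm for which the authors found no known mature sequence.

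The most abundant sequence of each family is shown first, because these carry most of the reads. The seed, bases 2 to 8, is in capitals.
tae-miR5062-5p: tGAACCTTagggaacagccgcat
tae-MIR5175-p3_1ss2TC: aCGACGAGtaatttggaacgg
bdi-miR5064_L-2R+2: aATTTGTCcatagcatcagcc
tae-MIR5049-p5_1ss7AG: tTACTTGTcttagatttgtct
bdi-MIR5066-p5_2ss13GA22CA: tCTTTTGGttgcattggctagagc
osa-miR1436_L+2: tTACATTAtgggacggagggagt
bdi-miR5067_R+1_1ss2CG: tGAGCGACaactaatatggatc
bdi-MIR5180a-p5_2ss19AT20TC: tAACTACTactccctctgtcc
ata-miR5181-3p_R+3_1ss14CA: cACTTATTttggaacggagggagt
osa-MIR1439-p3_2ss10TC20TG: cTTATATTtcggaacggagggagt

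Only 3 member sequences were identical to their miRBase entry, and the others differed by end positions or substitutions, or lay on an arm not listed there. No seed was shared by more than 4 members. The 4 members of miR1436 that begin 2 bases upstream of the rice sequence shared TACATTA, 4 members of miR5067 shared GAGCGAC and 4 members of miR5066 shared TCGGTCT. The seed AGTATTT was carried by members of different families, 2 named miR5049b and 2 named miR5175a.

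The name of the group was compared with its sequences by searching for the 9 letters CTCCCTCCG and their reverse complement CGGAGGGAG. The letters were found in 27 of the 135 mature sequences, against 143 of all 2111 (6.77%). In all 27 members they were read as the reverse complement CGGAGGGAG and in none as CTCCCTCCG, and over the whole table the reverse complement was in 135 sequences and the forward letters in 8. The match lay at the 3′ end of the small RNA, with 0 to 5 bases after it. Examples with the matching letters in capitals are as follows, and they show the same end under different family names.
osa-miR1436_L+2: ttacattatgggaCGGAGGGAGt
osa-MIR1439-p3_2ss10TC20TG: cttatatttcggaaCGGAGGGAGt
ata-miR5181-3p_R+3_1ss14CA: cacttattttggaaCGGAGGGAGt
hvu-MIR5049d-p5_2ss4TA24AT: caaatatttaggaaCGGAGGGAGt
bdi-miR5175a_R+2_1ss4AT: aagtatttaggaaCGGAGGGAGt
bdi-MIR5180b-p3_2ss3AG18TG: ttgttttggatCGGAGGGAGt

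The families differed in this respect. The letters were in 5 of 7 miR1436, 2 of 3 miR1439, 6 of 11 miR5175, 12 of 64 miR5049, 1 of 7 miR5180 and 1 of 3 miR5181 sequences. No sequence of miR5062, miR5064, miR5066 or miR5067 held them. The listed precursors are the genomic hairpins to which the authors assigned each sequence, and 124 of 131 members were found in theirs letter for letter. The precursors held the letters in 64 of 131 cases (48.9%), against 537 of 2068 over the whole table (26.0%). For miR5067 the letters were in 4 of 6 precursors, for miR5180 in 6 of 7 and for miR5181 in 3 of 3. None of the 34 precursors of miR5062, miR5064 and miR5066 held them, and 2 of the 34, both of miR5066, held them with 1 mismatch allowed. By this measure the name transposon-like fitted 7 of the 10 families and was not borne out for miR5062, miR5064 and miR5066, which are described by number alone below. These shares are descriptions of letters, and a missing match says only that these letters were not in that window.

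The share in precursors was set beside that of families with neighbouring numbers. The letters were in 48.9% of the precursors of all members, in 68.7% of those named miR1117 to miR1121, in 63.2% of miR1122 and in 79.6% of miR1123 to miR1130. They were in 5.69% of the precursors named miR1131 to miR1139 and in 11.2% of all remaining ones.

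**Figure D1:**
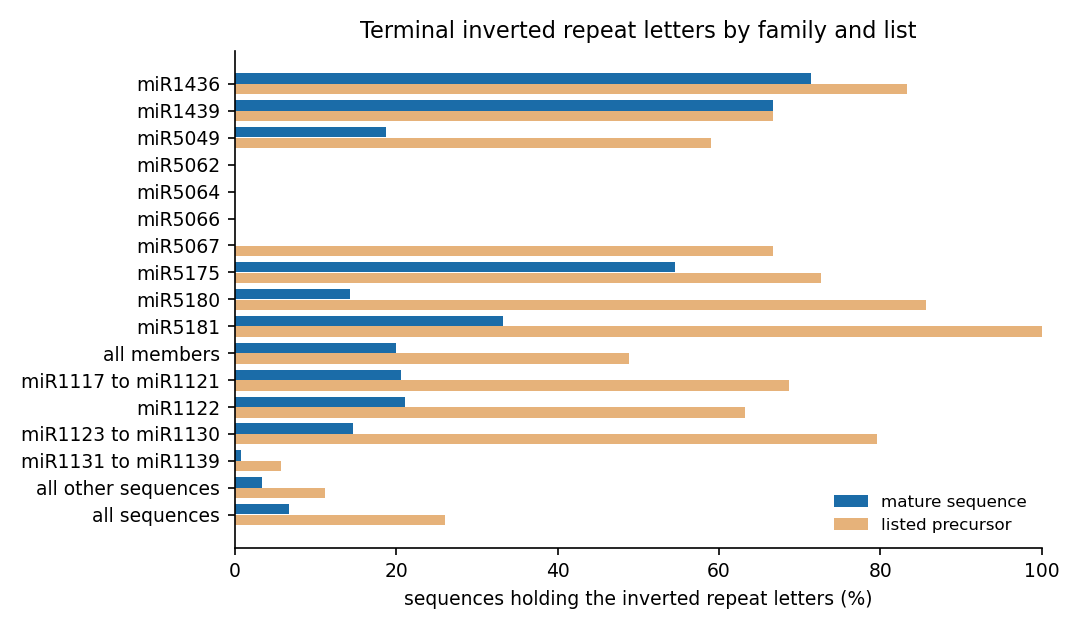
Share of sequences (%, horizontal axis) that hold the 9 inverted-repeat letters on either strand, by family and comparison list, where dark bars are mature sequences and light bars the listed precursors. The bars of miR5062, miR5064 and miR5066 are at 0, while 83.3% of miR1436 and 100% of miR5181 precursors hold the letters, against 26.0% of all precursors.

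Several precursors were inverted repeats over almost their whole length. The 86-base precursor of the miR5067 pair, on chromosome 7B, had 41 base pairs in the structure given by the authors and held the letters at both ends. That of tae-MIR5175, with 39 pairs in 85 bases on chromosome 2A, held the exact letters at its 3′ end only, and that of osa-miR1436_L+2 on chromosome 7B held them on both strands. They are printed with the matching letters in capitals because the repeat can be read from them directly. Coordinates are of the Svevo.v1 assembly. The chromosome names were assigned here from the order of the sequence identifiers, and the last precursor of each of the 14 lay at 98.7% to 100% of the position of the last gene. The miR5067 and tae-MIR5175 members themselves each differed from the precursor printed here at 1 position.
bdi-MIR5067, chr7B:708847649-708847734, plus strand: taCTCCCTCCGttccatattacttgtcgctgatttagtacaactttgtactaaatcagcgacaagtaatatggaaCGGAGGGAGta
tae-MIR5175, chr2A:266768781-266768865, minus strand: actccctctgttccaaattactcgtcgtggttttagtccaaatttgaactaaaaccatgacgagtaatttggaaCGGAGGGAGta
osa-miR1436_L+2, chr7B:596068672-596068788, plus strand: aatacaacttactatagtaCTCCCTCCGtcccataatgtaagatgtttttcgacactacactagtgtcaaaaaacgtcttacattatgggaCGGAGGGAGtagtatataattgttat

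The minimal folding free energy index, which scales the folding energy of a hairpin by its length and GC content, differed between the families. It was at least 1 for all 7 miR1436, all 6 miR5067 and all 3 miR5181 sequences, for 5 of 7 miR5180, 43 of 64 miR5049 and 4 of 7 miR5064 sequences, and for 1 of 3 miR1439 sequences. It was at least 1 for 0 of 24 miR5066 sequences, whose values ran from 0.100 to 0.900, and for 0 of 3 miR5062 sequences, all at 0.900. Among all listed sequences 60.3% reached 1, and 54.1% of the 135 did. Within miR5175 the range was wide, from 0.100 to 1.90, with 4 of 11 sequences at 1 or more.

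Of the 131 members with a listed locus, 40 precursors (30.5%) overlapped a RefSeq gene model of Svevo.v1, against 339 of 2068 in the whole table (16.4%). All 3 miR5062 sequences lay in gene models, TRITD_5Bv1G232320 for the 5p and 3p pair and TRITD_5Av1G232950 for ata-miR5062b-5p_L+2R-4. None of the 7 miR5064 or 3 miR5181 precursors overlapped a gene. The members were listed on all 14 chromosomes, 46 on the A and 85 on the B genome. A repeat has many copies and the table gives 1 locus for each entry, so a listed locus is not shown to be the only source, and exon and intron positions were not examined.

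Many members were the same stretch read in shifted registers. When sequences that shared 12 letters in a row on either strand were joined, the 135 fell into 13 clusters. The largest joined 87 sequences of 7 families, 56 of miR5049, 8 of miR5175, 7 of miR1436, 6 of miR5067, 5 of miR5180, 3 of miR5181 and 2 of miR1439. A further 7 sequences named miR5049 and 2 named miR5180 formed a cluster of their own. The miR5066 sequences fell into a cluster of 18, a cluster of 5 and 1 sequence alone, and all 7 miR5064 sequences formed 1 cluster. No cluster held miR5062, miR5064 or miR5066 together with another family.

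The registers of miR5066 formed a ladder. Relative to bdi-MIR5066-p5_2ss13GA22CA, the 18 overlapping sequences began at 11 different positions, with offsets from -11 to 4, and 15 of them matched it letter for letter over the shared part. The 5 sequences of the smaller cluster were exact, shifted reads of a related stretch. The most abundant of the larger cluster and those of the smaller one that the comparison turns on are shown with the seed in capitals.
bdi-MIR5066-p5_2ss13GA22CA: tCTTTTGGttgcattggctagagc
bdi-MIR5066-p3_2ss11GA20CA: tTTTGGTTgcattggctagagcat
bdi-MIR5066-p3_1ss15CT: gTTGCGTTggctagtgcatgaagc
bdi-MIR5066-p3_2ss13CT24CT: tGCGTTGGctagtgcatgaagctt

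In 6 cases, 3 of them in miR5066, a pair of sequences overlapped over most of its length and carried identical reads in every library. These 12 sequences appear to hold the same reads under 2 names. Family sums with such pairs counted once are given where the pairs could change a statement, and the log2 ratios of the sums of families and of all members, with their intervals, count such pairs once.

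Members were mostly scarce. The median of the mean normalised count over the 4 libraries was 7.26, against 16.1 for all sequences. A mean of 10 or more was reached by 53 members (39.3%), against 59.6% of all sequences, and a mean of at least 100 by 10 members. In 56 members no library reached 10. All 4 libraries recorded 62 members (45.9%, against 63.1% of all), 28 were recorded in 3 libraries, 41 in 2 and 4 in 1. SWH, with the fewest reads, recorded 85 members, and TCG, TWH and SCG recorded 107, 108 and 118.

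**Figure D2:**
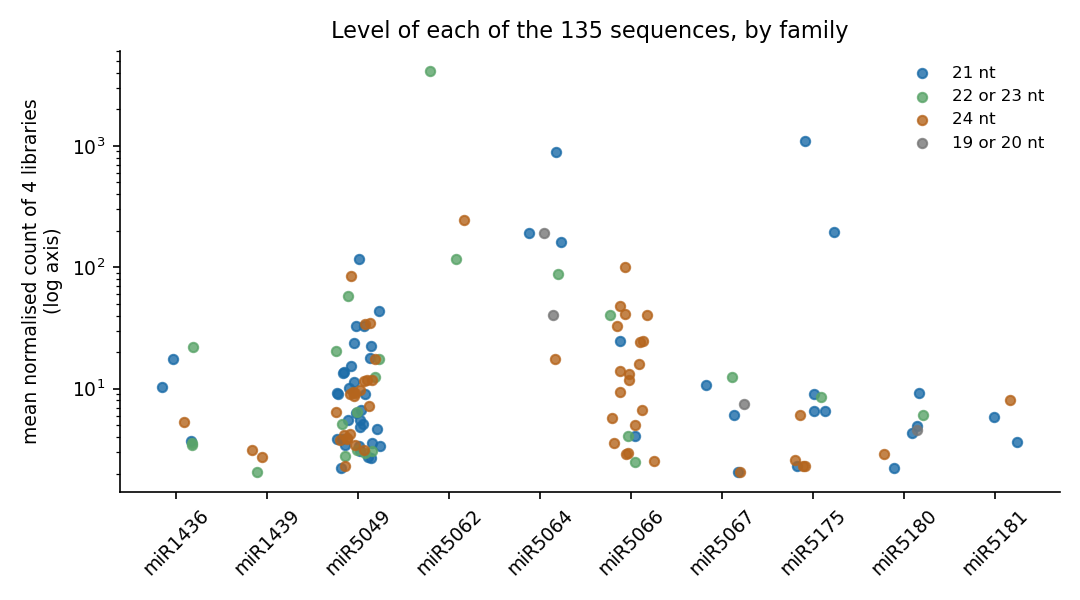
Mean normalised count over the 4 libraries (vertical log axis) of each of the 135 sequences, as 1 point each, by family (horizontal axis) and coloured by length. The 23-nt tae-miR5062-5p stands highest at 4143, followed by sequences of miR5175 (1085) and miR5064 (892), and most other members lie under 100.

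The reads were concentrated in a few sequences. tae-miR5062-5p had normalised counts of 4474, 4126, 4218 and 3753, and the 3 miR5062 sequences together took 49.4 to 53.3% of the members' reads. tae-MIR5175-p3_1ss2TC had 1116, 1264, 1251 and 790 reads, and bdi-miR5064_L-2R+2 had 581, 910, 1409 and 778 reads. The families followed in the order miR5062, miR5175, miR5064, miR5049, miR5066 in TCG, and miR5064 stood above miR5175 in SCG and SWH. In TWH miR5064 summed to 1528 and miR5175 to 1398, an order that turned to 1348 against 1398 with the identical pair counted once. miR5049, with 64 sequences, took 9.64 to 10.1% of the members' reads. The families miR1436, miR5067, miR5180, miR5181 and miR1439 stayed under 100 summed normalised counts in every library.

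As a whole the 135 sequences took 0.866%, 0.868%, 0.881% and 0.814% of the microRNA reads. Their summed normalised count was 8908, 9006, 9489 and 8348. On the log2 scale TWH stood 0.02 above TCG, with a 95% counting interval of -0.03 to 0.06, and SWH stood at -0.19 against SCG, with an interval of -0.24 to -0.15. Intervals here cover counting error only, and the spread between seedling pools of 1 group was not measured.

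Lengths differed between the families that held the inverted-repeat letters and the others. Of the 135 sequences 55 were 21 nt (40.7%) and 53 were 24 nt (39.3%), and 36.2% and 33.0% of all sequences had these lengths. miR5066 was mainly 24 nt, in 19 of 24 sequences, and miR5049 mainly 21 nt, in 32 of 64, with 22 of 24 nt. By reads, 23 nt was the most frequent length, with 47.1 to 52.0% of the members' reads, nearly all from tae-miR5062-5p. Without miR5062, miR5064 and miR5066, 75.8 to 80.3% of the reads were 21 nt and 13.1 to 14.8% were 24 nt, against 61.6 to 63.3% and 3.76 to 4.08% in the whole table. Much of this came from tae-MIR5175-p3_1ss2TC, and without it 56.6 to 61.8% of the reads were 21 nt and 24.9 to 27.2% were 24 nt. A 24-nt share above that of the whole table was not particular to these families. It was 26.4 to 34.3% for miR1117 to miR1121 and 71.8 to 76.8% for miR1122. For miR1123 to miR1130 it was 76.2 to 79.5%, and for miR1131 to miR1139 38.2 to 40.9%.

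The first base of the 21-nt members was A in 23 and T in 24 of 55 sequences. Over the whole table T led the 21-nt sequences (55.6%) and A followed (22.7%). Among 21-nt miR5049 sequences 18 of 32 began with A and 9 with T. The 24-nt members began with A in 41.5% of cases, close to the 41.8% of all 24-nt sequences.

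**Figure D3:**
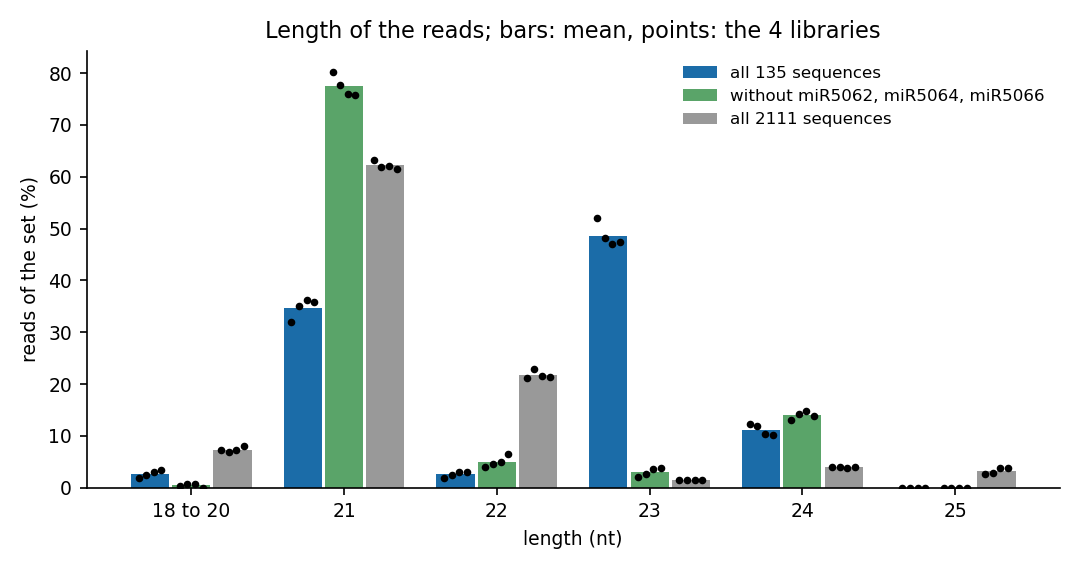
Share of the reads of each set (%, vertical axis) by length (nt, horizontal axis), where bars are means of the 4 libraries and points the single libraries. Reads of the 135 sequences peak at 23 nt, and without miR5062, miR5064 and miR5066 at 21 nt with 75.8 to 80.3%, which falls to 56.6 to 61.8% without tae-MIR5175-p3_1ss2TC.

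The first comparison asked how the libraries of the genotypes differed. Between the control progenies, SCG against TCG, 18 members were called higher and 15 lower. The background over all 2111 sequences was 11.0% called higher and 12.2% lower, and 24.4% of the members were called in either direction against 23.3% of all. A call needed an adjusted p under 0.05 in both the chi-squared test and Fisher's exact test and a log2 fold change above 1 in size, and a sequence with no recorded reads in 1 of the libraries passed the fold criterion whatever its count in the other. Of the 24 such calls in SCG against TCG, 7 had a lower limit above 2-fold when the 0 was set to 5 reads, and in SWH against TWH it was 8 of 34. Such a limit leaves out the counting error of the recorded count, so it is not a confidence limit. All folds given below as at least a value are of this kind. Between the progenies of stressed parents, SWH against TWH, 12 members were called higher and 26 lower, against backgrounds of 10.9% and 12.0%. Of these 26, 23 had no recorded reads in SWH, the shallowest library, and the part of depth in these calls was not tested.

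miR5064 stood higher in the L6 libraries. Its summed normalised counts were 1087, 1528, 1960 and 1751, so both L6 libraries stood above both DBA Aurora libraries. SCG exceeded TCG by 0.85 on the log2 scale (95% counting interval 0.74 to 0.96), and SWH exceeded TWH by 0.17 (0.06 to 0.28). With the pair of identical counts taken once the values were 963, 1348, 1733 and 1518.

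Within miR5064 a 23-nt form and a 24-nt form that begin at the same base were called in opposite directions between the control progenies.
bdi-miR5064_R+2_1ss1CT: tGAATTTGtccatagcatcagcc
bdi-miR5064_R+3_1ss1CT: tGAATTTGtccatagcatcagcca
The 23-nt form had 36, 95, 146 and 85 reads, and after normalisation both L6 libraries, at 122 and 102, stood above both DBA Aurora libraries, at 37.3 and 89.9. It was called higher in SCG than in TCG, by 1.71 on the log2 scale (1.18 to 2.23, Fisher's exact test, adjusted p = 7.28e-10). In SWH against TWH the difference was only 0.18 (-0.24 to 0.60) and was not called. The 24-nt form, longer by a single A, had 23, 28, 10 and 9 reads, and both L6 libraries lay below both DBA Aurora libraries. It was called lower in SCG than in TCG (log2 -1.52, -2.59 to -0.44, Fisher's exact test, adjusted p = 0.0162) and lower in SWH than in TWH (log2 -1.30, -2.38 to -0.21, adjusted p = 0.0480). The listed loci were on chromosome 4B for the 23-nt form and chromosome 3A for the 24-nt form.

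The most abundant form, the 21-nt bdi-miR5064_L-2R+2, begins 2 bases further in. Its normalised counts were 601, 861, 1173 and 933, and SCG exceeded TCG by 0.96 on the log2 scale (0.82 to 1.10), which is under the fold needed for a call. The 19-nt bdi-MIR5064-p3 had 31, 26, 53 and 50 reads and was called higher in SWH than in TWH (log2 1.28, 0.60 to 1.97, Fisher's exact test, adjusted p = 0.00106). bdi-MIR5064-p3_1ss21CT was almost level, with 144, 166, 160 and 179 normalised counts.

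miR5066 went the other way. Its summed normalised counts were 684, 529, 382 and 327, and both L6 libraries lay below both DBA Aurora libraries. SCG stood at -0.82 against TCG on the log2 scale (upper counting limit -0.63) and SWH at -0.74 against TWH (-0.96 to -0.52). Counted once, the values were 570, 470, 324 and 282. In 14 of the 24 miR5066 sequences both L6 libraries were below both DBA Aurora libraries and in 1 they were above. Over all 2111 sequences 25.1% lay below in this sense and 21.4% above, and for the 135 members the counts were 35 and 26. These sequences overlap and are not independent.

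The smaller miR5066 cluster was lower in L6 by more than the larger one, a difference that was not tested. Its summed normalised counts were 104, 95.6, 28.3 and 34.8, against 571, 427, 354 and 285 for the larger cluster. bdi-MIR5066-p3_2ss13CT24CT had 34, 24, 7 and 0 reads and was called lower in SCG than in TCG by a log2 change of -2.59 (-3.77 to -1.42, Fisher's exact test, adjusted p = 1.91e-05) and at least 3.79-fold lower in SWH than in TWH. bdi-MIR5066-p3_2ss1TA22CT had 22, 25, 0 and 5 reads and was at least 5.47-fold lower in SCG than in TCG. With reads in both libraries, it was also called lower in SWH than in TWH (log2 -1.98). bdi-MIR5066-p3_1ss15CT, from the same cluster, had 31, 26, 22 and 18 reads and was called in no pair.

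In the larger cluster bdi-MIR5066-p3_2ss13GA18GA had 20, 29, 10 and 0 reads and was called lower in both genotype pairs, with a log2 change of -1.31 (-2.41 to -0.22, Fisher's exact test, adjusted p = 0.0458) in SCG against TCG. bdi-MIR5066-p5_2ss14GA23CA had 12, 8, 0 and 0 reads and was at least 2.98-fold lower in SCG than in TCG. The most abundant member, bdi-MIR5066-p5_2ss13GA22CA, had 101, 137, 98 and 70 reads and was not called.

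**Figure D4:**
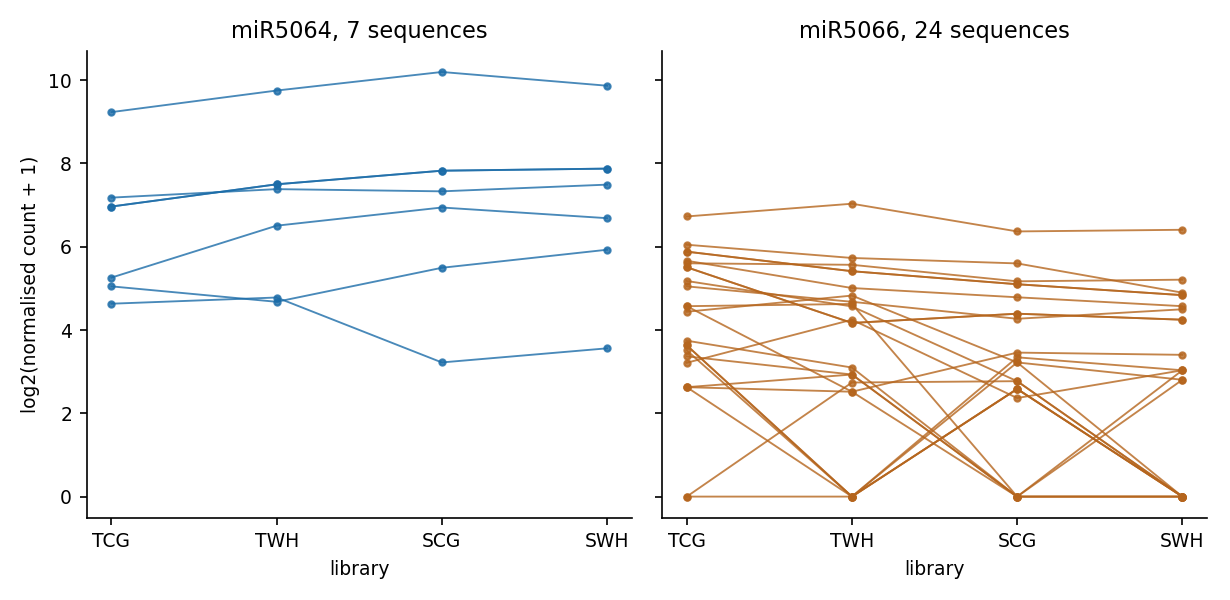
Log2 of the normalised count plus 1 (vertical axis) in the 4 libraries (horizontal axis), with 1 line per sequence, for miR5064 on the left and miR5066 on the right, where a value at 0 means no recorded reads. Of the miR5064 lines 5 of 7 are higher in both L6 libraries (SCG, SWH) than in both DBA Aurora libraries (TCG, TWH), and 14 of 24 miR5066 lines are lower. Over all 2111 sequences 21.4% are higher and 25.1% lower in this sense. Some lines of each family show the same reads under different names, so the lines are not independent.

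miR5062 was nearly level in sum, at 4751, 4452, 4690 and 4130 normalised counts, but its sequences differed. tae-miR5062-5p had normalised counts of 4474, 4126, 4218 and 3753. ata-miR5062b-5p_L+2R-4, from a locus on chromosome 5A, had 74, 109, 212 and 98 reads and was called higher in SCG than in TCG (log2 1.20, 0.82 to 1.59, Fisher's exact test, adjusted p = 3.30e-08). SWH and TWH differed by only 0.19 for this sequence (-0.21 to 0.58). The 3p strand ata-miR5062a-3p_2ss2TC18AG, from the 5B locus of tae-miR5062-5p, had 201, 223, 296 and 259 normalised counts, also higher in both L6 libraries. It overlaps ata-miR5062b-5p_L+2R-4 in sequence and fell into the same cluster, apart from tae-miR5062-5p. These overlapping sequences are not independent.

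Where the table listed a 5′ and a 3′ sequence under 1 precursor, their ratio can be compared within a library, where the library factor cancels. The 7 members that differed from their listed precursor are all among these, namely both sequences of tae-MIR5175, tae-MIR5049 and bdi-MIR5067, and bdi-MIR5064-p5_1, so for them the listed hairpin does not hold the sequence as read. There were 27 such comparisons between libraries, with Fisher's exact test adjusted over them. In the best alignment without gaps, the sequences of miR5062 were complementary at 14 of 22 positions, those of tae-MIR5175 at 11 of 12 and those of tae-MIR5049 at 7 of 21. A ratio here is of sequences listed together, and whether they were cut from the same hairpin was not tested. The ratio of the 3p to the 5p sequence of miR5062 was 0.0449, 0.0541, 0.0701 and 0.0690. It differed between SCG and TCG by 0.64 on the log2 scale (0.38 to 0.90, Fisher's exact test, adjusted p = 6.10e-06). For SWH against TWH the difference was 0.35 (0.08 to 0.62, adjusted p = 0.0380).

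The sequences listed as arms of tae-MIR5175, each with 1 mismatch to the listed precursor, showed a difference in ratio of the opposite sign. The 3′ sequence dominated, with p3 to p5 ratios of 6.60, 7.52, 4.70 and 4.22, so both L6 libraries were lower. The 5′ sequence had 169, 168, 266 and 187 reads.
tae-MIR5175-p5_1ss1AT: tTTACTCGtcgtggttttagt
The log2 difference of the ratio was -0.49 for SCG against TCG (-0.79 to -0.19, Fisher's exact test, adjusted p = 0.00540) and -0.83 for SWH against TWH (-1.16 to -0.51, adjusted p = 5.45e-06). Neither was called on its own.

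The sequences listed as arms of tae-MIR5049 on chromosome 7B differed from that precursor at 1 position for p5 and at 2 for p3. With only 7 of 21 positions complementary, they are not shown to be the arms of 1 hairpin. The 5′ sequence was level at 118, 121, 111 and 115 normalised counts, and the 3′ sequence had 66, 53, 37 and 21 reads.
tae-MIR5049-p3_2ss11CT18AG: tAATATGGattggagggggta
The 3′ sequence was called lower in SCG than in TCG (log2 -1.15, -1.73 to -0.57, Fisher's exact test, adjusted p = 5.71e-04), and in SWH against TWH the change of -0.99 (-1.72 to -0.27) was just under the fold needed. The p3 to p5 ratio was 0.580, 0.416, 0.278 and 0.219, and it differed by -1.06 between SCG and TCG (-1.75 to -0.38, adjusted p = 0.00786) and by -0.92 between SWH and TWH (-1.75 to -0.10, adjusted p = 0.0644). The sequences of bdi-MIR5067 were too scarce for this comparison, since the 3′ one was recorded in SCG alone, with 10 reads.

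Some miR5064 sequences were listed under a precursor together with a sequence named miR9674. bdi-miR5064_R+3_1ss1CT and tae-MIR9674a-p3_2ss20GA21CA are complementary at 19 of 21 positions. bdi-MIR5064-p5_1 had 124, 180, 226 and 234 normalised counts. It differed at 2 positions from the precursor on chromosome 6B under which it is listed with tae-MIR9674a-p3, and its reads are among those given under 2 names, so no ratio is read for this pair. No ratio is read for bdi-MIR5064-p5_2 either, because it carries those reads, although it was found letter for letter in its own listed precursor. The sequences bdi-MIR5064-p3_1ss21CT and tae-MIR9674a-p5_1ss20GT were complementary at 12 of 16 aligned positions. The ratio of bdi-MIR5064-p3_1ss21CT to tae-MIR9674a-p5_1ss20GT was 5.15, 19.4, 7.68 and 13.5. It differed by 1.92 between TWH and TCG (0.78 to 3.05, Fisher's exact test, adjusted p = 0.00287) and by 0.82 between SWH and SCG (-0.25 to 1.89). The miR9674 sequence was scarce, at 27.9, 8.52, 20.8 and 13.2 normalised counts.

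miR5049 as a family was level, with summed normalised counts of 869, 908, 915 and 818. Of its 64 sequences 9 were called in SCG against TCG and 22 in SWH against TWH, most of them with no recorded reads in 1 library. Over all 2111 sequences 23.3% and 22.9% were called in these pairs. hvu-miR5049c_L-2_1ss6AC had 30, 44, 48 and 15 reads and was called lower in SWH than in TWH (log2 -1.21, -2.06 to -0.37, Fisher's exact test, adjusted p = 0.0149). hvu-MIR5049c-p5_2ss8AG18CT had 0, 13, 19 and 9 reads and was at least 3.06-fold higher in SCG than in TCG. hvu-MIR5049d-p5_2ss4TA24AT, which ends in the inverted-repeat letters, had 70.4, 66.3, 101 and 102 normalised counts, higher in both L6 libraries but not called.

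miR1436 was highest in SCG. Its summed normalised counts were 50.2, 70.0, 99.1 and 43.8. SCG exceeded TCG by 0.98 on the log2 scale (0.50 to 1.46) and SWH was below SCG by -1.18 (-1.71 to -0.64). osa-miR1436_L+2 had 10, 25, 37 and 19 reads and was called higher in SCG than in TCG (log2 1.57, 0.57 to 2.58, Fisher's exact test, adjusted p = 0.00753). miR5180 had a similar order at lower levels, with 14.5, 45.4, 54.1 and 22.8 normalised counts from 2, 7, 6 and 2 recorded sequences. bdi-MIR5180a-p5_2ss19AT20TC, its most abundant sequence, had 0, 10, 17 and 11 reads.

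miR5067 had 43.5, 48.3, 42.5 and 30.0 summed normalised counts, and miR5181 had 20.7, 15.1, 17.5 and 16.8. miR1439 had 6.21, 11.4, 8.33 and 5.99, from 3 sequences of at most 10 reads in any library. At these depths no difference between the libraries was detectable in the sums of miR1439 and miR5181, as every counting interval included 0. Single sequences were called, always with no recorded reads in 1 library. In SCG against TCG 2 miR1439 sequences were called, osa-miR1439_L+2_2ss12GA23TC higher and osa-miR1439_L+3_2ss7TA17TG lower. For miR5181 the calls numbered 1 in TWH against TCG, 1 in SCG against TCG and 2 in SWH against TWH. Over all sequences 11.7%, 23.3% and 22.9% were called in these pairs. The lower limits of these folds were between 1.11 and 1.74.

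**Figure D5:**
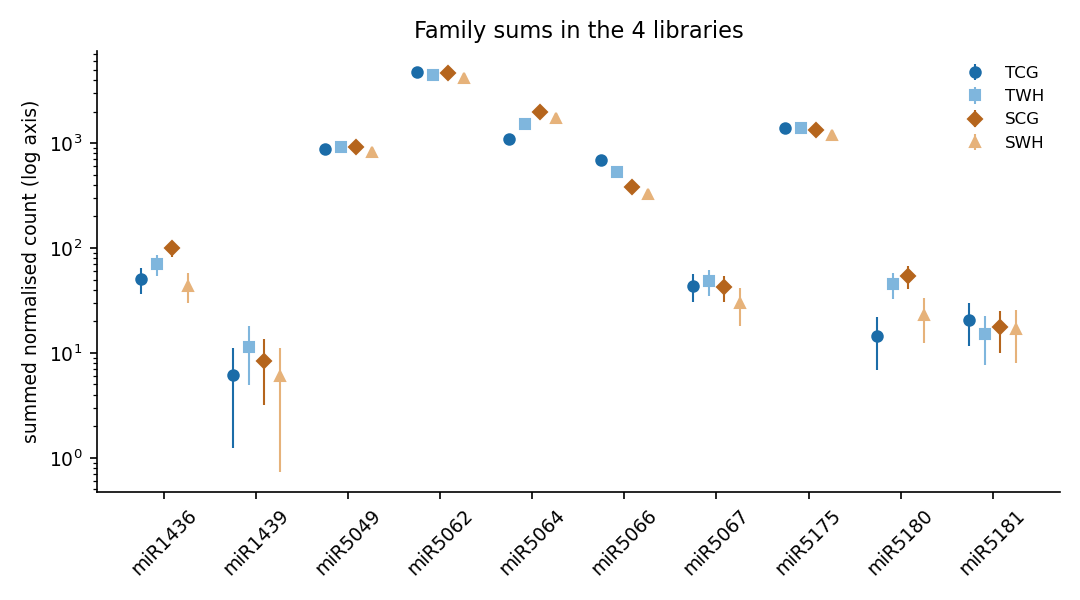
Summed normalised count of each family (vertical log axis) in TCG, TWH, SCG and SWH, with bars for the 95% counting interval of each sum and no replicate spread. miR5064 is higher and miR5066 lower in both L6 libraries than in both DBA Aurora libraries, while miR5049, miR5062 and miR5175 are nearly level.

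The second comparison asked how the progeny of stressed parents differed from those of control parents within a genotype. In DBA Aurora, TWH against TCG, 7 members were called higher and 12 lower, against backgrounds of 5.21% and 6.44% of all sequences. In L6, SWH against SCG, 3 were called higher and 7 lower, against 2.56% and 3.46%. All 10 calls in L6 were of sequences with no recorded reads in 1 of the libraries, as were 14 of the 19 in DBA Aurora. The lower limit was above 2-fold for 5 of these 10 and 7 of these 14. The balance of higher and lower turned when names were tested in place of different sequences, to 13 higher and 10 lower in DBA Aurora and to 8 and 7 in L6.

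Reads were recorded in both DBA Aurora libraries for 5 of the calls, 3 of them of miR5066, of which 2 hold the same reads. bdi-MIR5066-p3_1ss20GA had 22, 5, 12 and 8 reads and was called lower in TWH than in TCG (log2 -2.27, -3.67 to -0.87, Fisher's exact test, adjusted p = 0.00550). bdi-MIR5066-p5_2ss10GA19CA, listed as 2 overlapping sequences with the same reads, had 43, 18, 24 and 15 reads. It was called lower by -1.39 (-2.18 to -0.59, Fisher's exact test, adjusted p = 0.00411). Between the control progenies it was also called lower in SCG than in TCG (log2 -1.16), so TCG stood above both of the libraries it was compared with. hvu-MIR5049c-p5_1ss15TA had 24, 10, 25 and 14 reads (log2 -1.39, -2.46 to -0.33, adjusted p = 0.0345). The 23-nt bdi-miR5064_R+2_1ss1CT, with 36 reads in TCG and 95 in TWH, was called higher by 1.27 (0.72 to 1.82, Fisher's exact test, adjusted p = 6.56e-05).

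In L6 the largest lower limit was for hvu-MIR5049e-p3_1ss6AC, with 11, 14, 25 and 0 reads, at least 3.47-fold lower in SWH than in SCG. Among those higher in SWH, bdi-miR5067_1ss2CG had 5, 9, 0 and 9 reads and was at least 2.59-fold higher, before the counting error of its 9 reads. The miR5064 sum in TWH stood 0.49 above TCG on the log2 scale (0.37 to 0.60) and stood at -0.19 in SWH against SCG (-0.29 to -0.09). The pair counts for each genotype use different libraries, and the difference between the genotypes in the response to the parents' treatment was not tested.

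Across the 4 pairs 68 members were called at least once, 38 of them in 1 pair, 28 in 2 and 2 in 3. The share of all sequences called at least once was not counted. By pair, 14.1%, 7.41%, 24.4% and 28.1% of members were called in TWH against TCG, SWH against SCG, SCG against TCG and SWH against TWH. Of all sequences 11.7%, 6.02%, 23.3% and 22.9% were called. Of the 68, 53 had at most 20 reads in every library. The lower limits of the folds for calls with 1 library below 5 reads had a median between 1.47 and 1.98 in the 4 pairs, and the highest was 5.47.

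A fit of all 4 libraries with genotype and parent treatment as terms used edgeR's quasi-likelihood test on 1258 sequences whose normalised counts averaged 10 or more, 53 of them members. It has 1 residual degree of freedom and treats the libraries of a genotype as its replicates. For genotype 0 of 53 members passed an adjusted p of 0.05 and 4 had an unadjusted p under 0.05, all lower in L6. This was 7.55% of members, against 13.8% of the 1258 sequences at an unadjusted p under 0.05, of which 1 passed the adjusted one (0.0795%). DESeq2 called 0 members and 35 of all sequences, with 3 members (5.66%, against 8.90% of all) at an unadjusted p under 0.05. limma called 0 members and 11 of all sequences, with 7 members (13.2%, against 12.3% of all). The smallest adjusted p of a member was 0.218, for tae-MIR5049-p3_2ss11CT18AG at a log2 change of -1.07, followed by bdi-MIR5066-p3_2ss13CT24CT at -3.27 (adjusted p = 0.232) and bdi-miR5064_R+3_1ss1CT at -1.39 (adjusted p = 0.264). For parent treatment edgeR called 0 of 53 members and 0% of all sequences, with 0 members and 1.59% of all at an unadjusted p under 0.05. DESeq2 and limma called 0 members, with 0 and 1 at an unadjusted p under 0.05, against 0.954% and 2.38% of all.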

How the data were processed

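Small RNA of pooled seedlings (TruSeq Small RNA kit, single-end reads) was processed by the authors with ACGT101-miR (version not given in the sources used here). Reads of 18 to 25 nt were kept, matches to Rfam, Repbase and messenger RNA were removed, and the rest were aligned to miRBase 22.1 and the Svevo.v1 durum wheat genome. Removal of Repbase matches may lower the counts of repeat-like sequences. The deposited table gives estimated counts (raw reads, nearly all whole numbers), the normalised signal, a multiple of the estimated counts by 1 factor per library, and the GC percent of each precursor, all made by the authors. Folding energies are the authors' and were used as deposited. Some lines of the table are empty and were not analysed here. Chromosome names were given to the deposited sequence identifiers by their order, which assumes that the identifiers follow the order of the chromosomes. Every listed precursor was searched for the motif, with no minimum length. Per-sample columns left unused numbered 0.

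Entries were reduced to different sequences. Library pairs were tested by the chi-squared test and Fisher's exact test (two-sided) on normalised counts, each sequence against all others, with Benjamini-Hochberg adjustment over all 2111. The additive model used edgeR 4.0.16 (R 4.3.3) on counts rounded to whole numbers, with limma 3.58.1 and DESeq2 1.42.0 as alternatives. SciPy gave exact tests. Counting intervals are 95% and assume Poisson reads, which PCR duplicates can break. Scripts were tested on simulated data. The labels give no replicates, since each group is 1 pooled library.

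The families, comparison lists and tests were chosen with earlier results of these data known. The naming rule took the most abundant sequence of each family, the 5 most abundant members, both arms of a precursor and every member called. Of the 68 called members, those with reads in both libraries or a high lower limit are named and the others are given as counts. Registers, clusters and arm ratios were added after the data were seen, as were the alternatives restricting calls to sequences recorded in both libraries, allowing 1 mismatch, counting shared reads once and leaving tae-MIR5175-p3_1ss2TC out of the length shares.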

Additional observations from a re-analysis of the deposited data

Results flagged for a closer look

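Under the parents' stress treatment 2 families had ratios of opposite sign in the genotypes, with counting intervals on either side of 0. miR5064 stood at a log2 ratio of 0.49 in DBA Aurora and -0.19 in L6. miR5180 stood at 1.65 in DBA Aurora and -1.25 in L6, from at most 65 reads in any library. With 1 library per group, the difference between the genotypes was not tested.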

How the results depend on the processing

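No paired analysis was possible because each group is 1 library and the labels give no replicate numbers. For TWH against TCG the 19 called members became 40 at unadjusted p, 12 with a minimum normalised count of 10, 4 with each 0 set to 5 reads, 5 with reads required in both libraries and 0 with the negative binomial exact test. For SWH against SCG, in the same order, 10 became 39, 4, 0, 0 and 1. For SCG against TCG 33 became 15 with the minimum, 9 with zeros at 5 reads, 9 with reads in both and 11 by the negative binomial test, and for SWH against TWH 38 became 13, 5, 4 and 7. TMM factors, no fold criterion and names in place of sequences left these counts within 1.5 times. With names the split of higher and lower calls turned from 7 and 12 to 13 and 10 for TWH against TCG and from 3 and 7 to 8 and 7 for SWH against SCG. The fall with zeros at 5 reads shows how many calls rest on a library below the recording minimum.

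The genotype count of 0 members became 3 with no filter on low counts (bdi-MIR5066-p3_2ss13GA18GA, bdi-MIR5066-p3_2ss13CT24CT and bdi-MIR5066-p3_2ss1TA22CT, all lower in L6), and ranged from 0 to 2 with 1 library left out and no term for parent treatment: 2 without TWH, 2 without SCG, 1 without SWH and 0 without TCG. The cause was not tested. The parent treatment count stayed at 0 in all alternatives. The 100 log2 changes of called members kept their direction with TMM factors and with a pseudocount of 1, which is no test of that direction. Adding 1 to both counts keeps their order, and the TMM factors moved the changes by far less than the fold needed for a call. As a share of microRNA reads in place of normalised counts, the log2 ratios of all members together were 0.00, -0.11, 0.02 and -0.09 in the order of the pairs above, against 0.02, -0.19, 0.09 and -0.12. The inverted-repeat letters were in 27 mature members, in 36 when shortened to 8 letters and in 38 with 1 mismatch allowed, and in 64 precursors.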
